A study of Mus musculus with 2 samples.

Results

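The barcodes described here are 276 of the 4993 cell barcodes in a mouse tumor single-cell RNA series: 117 of 2491 in the library from Cre plus mice and 159 of 2502 in the library from Cre minus mice. They carried melanoma transcripts, almost no Malat1, fewer than 3 of 6 cycling genes, and a high share of the hypoxia genes Bnip3, Fam162a, Ero1l and Higd1a. The steps were as follows. A barcode was kept with at least 500 detected genes and under 10% mitochondrial UMIs (unique molecular identifiers, counted once per captured RNA molecule). It was called melanoma when Dct, Pmel, Mlana and Tyrp1 together had at least 5 UMIs and at least 2 times the UMIs of each of 4 other panels, for lymphatic endothelium, blood endothelium, macrophages and stroma. Malat1, a long RNA retained in the nucleus, had to hold under 0.1% of its UMIs, and fewer than 3 of Mki67, Top2a, Cenpf, Birc5, Cdk1 and Ube2c could be detected. Of the 552 barcodes left, those in which the 4 hypoxia genes held a larger share of UMIs than the joint median of 0.547% are the members. The other 276 barcodes, 95 Cre plus and 181 Cre minus, are called less hypoxic below and serve as the reference.

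The study sorted endothelial cells from melanomas grown in mice of 2 genotypes. The Cre plus mice were Ifngr1iProx1 and the Cre minus mice were Ifngr1WT; by its name the Ifngr1iProx1 genotype targets the interferon-gamma receptor gene Ifngr1 in cells that express Prox1, the transcription factor of lymphatic identity; the injected tumor line is the same in both groups. All mice received 500K B16F10-OVALBUMIN/VEGFC melanoma cells, a B16 derivative carrying ovalbumin and the lymphatic growth factor VEGF-C, by injection into the skin. On day 15 the tumors were removed, and 3 per genotype were pooled into a single 10x 3′ library each. Cells were sorted as DAPI-, CD31+ and CD45-, a gate meant for endothelium, and the barcodes described here are melanoma barcodes found in its output. With 1 library per genotype there is no replicate, no comparison below has a test, and every interval is a 95% interval for counting error alone, within these libraries.

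Cells short of oxygen stop degrading the hypoxia-inducible factors, which bind a short DNA core near their target genes and raise glycolysis, glucose uptake, mitophagy and vascular growth factors. Bnip3 is a mitochondrial receptor for mitophagy, Fam162a (also called growth and transformation-dependent protein) and Higd1a are mitochondrial proteins induced by hypoxia, and Ero1l is an oxidase that drives disulfide formation in the endoplasmic reticulum. In fast-growing melanomas, cells far from a vessel show this program.

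The promoters of the 4 genes that chose the barcodes are printed here because all of them hold the hypoxia core, and those of Pgf and Mcm3 because these were among the genes farthest apart between hypoxic and less hypoxic barcodes. Each is 300 bases from RefSeq on GRCm38.p6, from 250 before the gene's start to 50 after it, read on the gene's strand. Capitals mark ACGTG or GCGTG on either strand (CACGT and CACGC on the other strand) in the first 5 sequences, and TTTCCCGC or TTTGGCGC on either strand, the letters of E2F sites in replication genes, in Mcm3. Bnip3 lies at chr7:138909457-138909756, Fam162a at chr16:36071512-36071811, Ero1l (Ero1a in RefSeq) at chr14:45318523-45318822, Higd1a at chr9:121857747-121858046, Pgf at chr12:85177264-85177563 and Mcm3 at chr1:20820263-20820562, all on the minus strand.
Bnip3: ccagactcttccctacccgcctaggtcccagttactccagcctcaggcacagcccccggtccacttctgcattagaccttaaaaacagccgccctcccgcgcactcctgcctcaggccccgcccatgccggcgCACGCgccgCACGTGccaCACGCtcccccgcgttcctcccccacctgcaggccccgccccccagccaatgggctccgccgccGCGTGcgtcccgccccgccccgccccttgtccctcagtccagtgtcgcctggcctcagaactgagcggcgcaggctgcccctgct
Fam162a: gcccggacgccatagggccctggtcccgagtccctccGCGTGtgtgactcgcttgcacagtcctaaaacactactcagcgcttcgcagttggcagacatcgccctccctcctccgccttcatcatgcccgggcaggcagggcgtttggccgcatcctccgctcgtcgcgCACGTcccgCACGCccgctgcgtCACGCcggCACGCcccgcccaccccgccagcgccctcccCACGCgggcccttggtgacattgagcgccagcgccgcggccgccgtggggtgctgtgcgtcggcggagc
Ero1l: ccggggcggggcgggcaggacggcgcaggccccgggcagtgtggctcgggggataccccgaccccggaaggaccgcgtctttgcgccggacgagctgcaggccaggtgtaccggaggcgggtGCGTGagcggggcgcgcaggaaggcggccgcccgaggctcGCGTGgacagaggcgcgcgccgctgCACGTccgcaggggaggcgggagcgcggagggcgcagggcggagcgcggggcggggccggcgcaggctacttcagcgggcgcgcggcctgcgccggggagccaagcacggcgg
Higd1a: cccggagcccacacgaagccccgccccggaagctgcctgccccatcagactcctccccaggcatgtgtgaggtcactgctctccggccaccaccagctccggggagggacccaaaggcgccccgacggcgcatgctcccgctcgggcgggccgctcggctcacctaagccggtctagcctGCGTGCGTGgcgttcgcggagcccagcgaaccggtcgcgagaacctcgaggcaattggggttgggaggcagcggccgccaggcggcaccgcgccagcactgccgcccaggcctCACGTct
Pgf: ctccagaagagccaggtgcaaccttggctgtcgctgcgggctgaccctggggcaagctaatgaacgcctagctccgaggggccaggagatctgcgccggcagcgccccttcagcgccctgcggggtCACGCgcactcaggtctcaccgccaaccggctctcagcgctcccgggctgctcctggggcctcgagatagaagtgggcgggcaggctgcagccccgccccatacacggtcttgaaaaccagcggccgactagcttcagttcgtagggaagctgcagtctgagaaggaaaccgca
Mcm3: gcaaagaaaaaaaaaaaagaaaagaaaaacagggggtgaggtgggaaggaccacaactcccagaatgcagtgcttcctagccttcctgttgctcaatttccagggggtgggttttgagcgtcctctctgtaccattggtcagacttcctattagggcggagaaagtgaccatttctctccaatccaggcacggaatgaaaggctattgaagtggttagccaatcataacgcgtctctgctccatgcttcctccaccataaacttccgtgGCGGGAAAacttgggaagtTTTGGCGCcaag

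The hypoxia core occurred 5 times in the Bnip3 window, 6 times in Fam162a, 3 times in Ero1l, 3 times in Higd1a and 1 time in this Pgf window, while the other annotated Pgf start had 0. CACGTG reads ACGTG on both strands and was counted as 2 matches, and matches in Higd1a overlap. The core is common: 14380 of 32851 mouse promoter windows (43.8%) held at least 1. It was found in 37 of 47 windows of the hypoxia response list used below (78.7%) and 24 of 31 windows of the glycolysis list (77.4%), and likewise in 16 of 19 windows of the unfolded protein response list (84.2%), whose genes were mostly lower in hypoxic barcodes. The replication motif was rare, in 514 windows (1.56%), and was present in 8 of 24 windows of the DNA replication list (33.3%), including 2 matches in Mcm3. A match is a description of letters, not of a bound site.

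The markers of the melanoma label were present in the hypoxic barcodes. All 9 melanoma markers examined were detected in both libraries and together made 8210 CPM (the summed UMIs of a gene or list per 1000000 summed UMIs of the group) in the Cre plus library and 8873 CPM in the Cre minus library, although 4 of these markers were used in the rule. The rule also held the panels of lymphatic and blood endothelium, macrophages and stroma low, so the low levels of their markers that follow are a description. Lymphatic markers summed to 56.1 and 18.3 CPM in the Cre plus and Cre minus members. In Malat1-poor lymphatic barcodes of the same libraries they summed to 7359 and 9435 CPM. A single Cre plus member held 45 UMIs of the lymphatic panel, and 16 of 117 Cre plus members held any. Lyve1 and Reln were at 0 in the Cre minus members. Blood endothelial markers summed to 8.02 and 24.2 CPM in the members, with Esam at 0 in both libraries, macrophage markers to 11.7 and 20.8 CPM, and T and NK cell markers to 0 and 0.851 CPM. Pecam1, which encodes the CD31 of the sort, stood at 8.75 and 5.53 CPM in the members and at 292 and 294 CPM in the lymphatic barcodes. At least 1 UMI of the 5 general endothelial markers was found in 61.5% of Cre plus and 45.9% of Cre minus members, and in 35.8% and 34.8% of less hypoxic barcodes. The part of free RNA or of attached cells in these UMIs was not tested.

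The libraries held 66704257 UMIs (Cre plus) and 76967583 UMIs (Cre minus), of which the members held 1371366 and 2351232. A median member had 9477 UMIs and 2277 genes in Cre plus and 10519 UMIs and 2511 genes in Cre minus, a little deeper than the less hypoxic barcodes (7353 and 8910 UMIs). No Malat1 UMI at all was seen in 78.6% of Cre plus and 71.7% of Cre minus members, against 80.0% and 69.6% of less hypoxic barcodes. Mitochondrial UMIs were under 0.1% in 26.5% and 25.2% of members, in 21.1% and 15.5% of less hypoxic barcodes, and in 6.94% and 5.48% of non-cycling melanoma barcodes rich in Malat1. A single Cre minus member held 238741 UMIs, 10.2% of all member UMIs of that library (the next had 71332), and a single Cre minus less hypoxic barcode held 154613, 7.23% of its group; values without them are given where they differ. Haemoglobin made over 50% of the UMIs of 1 less hypoxic barcode and of 0 members. The libraries shared 1 cell barcode, and it was not a member. No doublet caller was run.

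Hypoxic barcodes made 55.2% [48.2, 62.0] of the Malat1-poor non-cycling melanoma barcodes of the Cre plus library and 46.8% [41.4, 52.2] of those of the Cre minus library (exact binomial intervals, counting error only). Among all kept barcodes they were 6.57% [5.46, 7.82] in Cre plus and 10.2% [8.78, 11.9] in Cre minus, an order opposite to that within the melanoma barcodes, since melanoma barcodes were 524 of the 1782 kept in Cre plus but 893 of the 1552 kept in Cre minus. The shares of kept barcodes depend on how many endothelial cells each sort recovered, and no tumor-to-tumor spread can be given for any of them. The cut was the joint median of the Malat1-poor non-cycling melanoma barcodes, so the member counts of the libraries are tied. A larger count in either library forces a smaller count in the other. The intervals take the cut as fixed and barcodes as independent, so they leave this tie out.

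The values that chose the members are given as a description only. Bnip3 stood at 1364 and 1463 CPM in hypoxic barcodes (Cre plus and Cre minus), against 441 and 524 CPM in less hypoxic ones, and Ero1l at 927 and 813 CPM, against 208 and 182 CPM. Fam162a stood at 2360 and 2550 CPM, against 1101 and 1031 CPM, and Higd1a at 3162 and 3001 CPM, against 1266 and 1160 CPM. The median barcode share of the 4 genes together was 0.759% and 0.720% in hypoxic barcodes, against 0.280% and 0.289% in less hypoxic ones. The split cuts a continuous range: the lowest share inside was 0.548% and the highest outside 0.547%, and 66 of the 552 barcodes (37 members and 29 others) lay within 10% of the cut. Each gene was also left out in turn and the barcodes chosen by the other 3. The log2 ratio of the gene left out was then 1.31 in both libraries for Bnip3. It was 0.72 (Cre plus) and 1.04 (Cre minus) for Fam162a, 1.46 and 1.22 for Ero1l, and 1.07 and 1.25 for Higd1a. In the same gene order, 264, 254, 260 and 252 members were chosen again. These ratios therefore read nearly the same split on a rule gene and are a description too. A share this high was also seen in Malat1-rich melanoma: 56.9% of Malat1-rich non-cycling Cre plus melanoma barcodes and 53.4% of the Cre minus ones lay over the same cut, whereas 0.735% (2 of 272) and 0 of 149 Malat1-poor lymphatic barcodes did (the upper limits of these intervals are 2.63% and 2.45%).

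**Figure D1:**
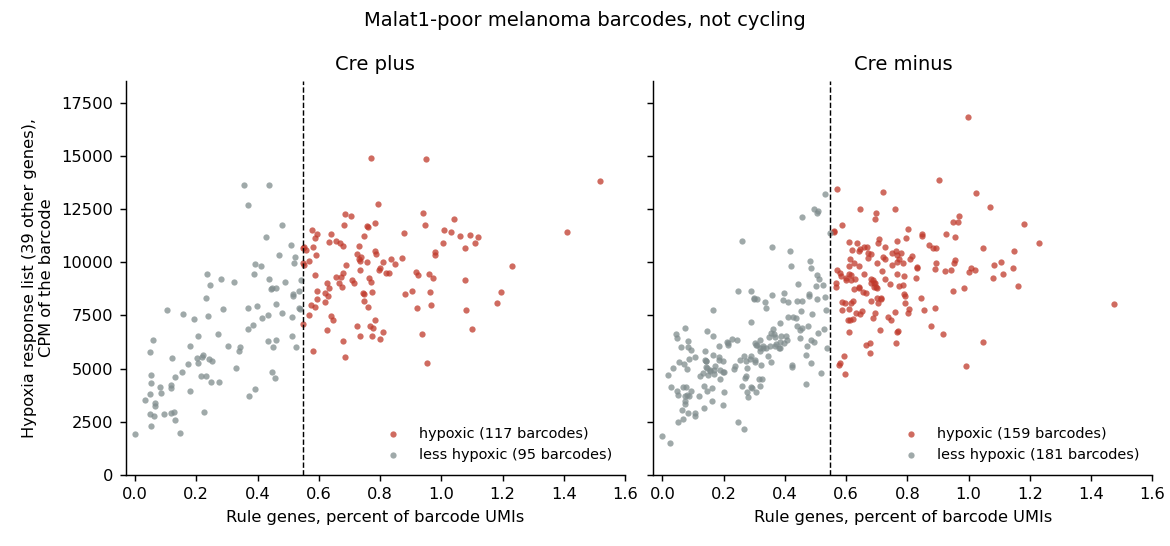
Each point is 1 Malat1-poor non-cycling melanoma barcode; the x axis gives the percent of its UMIs in the 4 genes of the rule, the y axis the CPM of the 39 listed hypoxia response genes not used in the rule, and the dashed line is the cut at 0.547%. Hypoxic barcodes (red, 117 Cre plus and 159 Cre minus) mostly sit above the less hypoxic ones (grey, 95 and 181), with medians of 9624 against 6300 CPM in Cre plus and 9438 against 5946 CPM in Cre minus, and the point clouds meet at the cut without a gap.

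Hypoxia response genes outside the rule were higher in hypoxic barcodes in both libraries. Of 39 listed genes, 26 reached 50 summed UMIs in Cre plus and 18 of these were at least 1.5-fold higher (9.76% of all 4424 genes measured there were), while 1 was at least 1.5-fold lower (12.7% of all genes). In Cre minus 19 of 30 were higher (7.59% of all 6558 genes) and 1 lower (16.2%). The median log2 ratio of the list was 0.95 in Cre plus and 0.88 in Cre minus, beside -0.06 and -0.14 over all genes, and 15 of the 26 genes measured in both passed 1.5-fold upward in each library, against 4.23% of all genes. Per barcode, the summed list ran between 5275 and 14894 CPM (median 9624) in Cre plus members and between 4732 and 16850 CPM (median 9438) in Cre minus members. In less hypoxic barcodes it ran between 1905 and 13660 CPM (median 6300) in Cre plus and between 1474 and 13220 CPM (median 5946) in Cre minus. The ranges overlapped, and 97.4% and 96.2% of members exceeded the median of the less hypoxic barcodes of their library.

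Pgf, which encodes placental growth factor, a ligand of the VEGF receptor Flt1, ranked highest by the smaller of the library ratios among the 1426 ranked genes with at least 200 summed UMIs in each library. It belongs to the list of vascular growth factors, not to that of hypoxia response genes. It had 254 and 135 CPM in hypoxic barcodes (Cre plus and Cre minus), against 33.0 and 18.2 CPM in less hypoxic ones, log2 ratios of 2.95 [2.41, 3.53] and 2.89 [2.41, 3.41]. Vegfa, the main hypoxia-driven ligand for blood vessels, had 91.9 and 143 CPM, against 35.1 and 39.3 CPM (1.39 and 1.86). The growth factor that the tumor line carries as a transgene, Vegfc, showed no such pattern: it had 559 and 651 CPM in hypoxic barcodes, against 476 and 806 CPM in less hypoxic ones. The list of vascular growth factors, which holds Pgf and Vegfc but not Vegfa, was mixed: 1 of 4 measured genes was at least 1.5-fold higher and 0 lower in Cre plus, 2 of 6 were higher and 1 lower in Cre minus, and the medians were 0.33 and -0.04. It summed to 1067 and 1100 CPM in hypoxic barcodes, against 802 and 1192 CPM in less hypoxic ones. The glucose transporter gene Slc2a1 (GLUT1) had 118 and 151 CPM, against 46.9 and 49.1 CPM, log2 ratios of 1.33 and 1.62. Hilpda, which limits fat breakdown on lipid droplets under hypoxia, had 222 and 286 CPM, against 73.5 and 59.4 CPM (1.59 and 2.27).

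Mxi1, an antagonist of Myc, had 120 and 130 CPM in hypoxic barcodes, against 29.8 and 36.0 CPM, a log2 ratio of 1.85 in Cre minus and a larger one in Cre plus, where it fell short of the 200 UMIs of the ranking. The glycogen genes Gys1 (glycogen synthase) and Gbe1 (branching enzyme) were higher by 1.39 and 1.17 in Cre plus and by 1.43 and 1.83 in Cre minus. Bnip3l, a mitophagy receptor related to Bnip3, was higher by 1.01 and 1.08, Car9, a carbonic anhydrase of the cell surface, by 1.07 and 1.20, and Egln1, the prolyl hydroxylase that marks the hypoxia-inducible factors for degradation, by 1.20 and 0.82. Several listed genes did not follow. P4ha1, a subunit of collagen prolyl hydroxylase, had 60.5 and 48.1 CPM in hypoxic barcodes, against 82.0 and 50.5 CPM (log2 -0.44 and -0.07), but 1 less hypoxic Cre plus barcode held 58.4% of its UMIs there, and without the top barcode of each group the Cre plus value was 0.70. Cited2, a feedback inhibitor of the hypoxia-inducible factors, was the gene past 1.5-fold downward in Cre minus (-0.74, and -0.35 in Cre plus), and Zfp36l1, an RNA-binding protein, was the one in Cre plus (-0.67, and -0.29 in Cre minus). Ndrg1 was higher by 1.09 in Cre plus and 2.23 in Cre minus; 1 less hypoxic barcode held 53.2% of its Cre plus UMIs in that group, and the ratio there was 2.02 without the top barcodes.

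**Figure D2:**
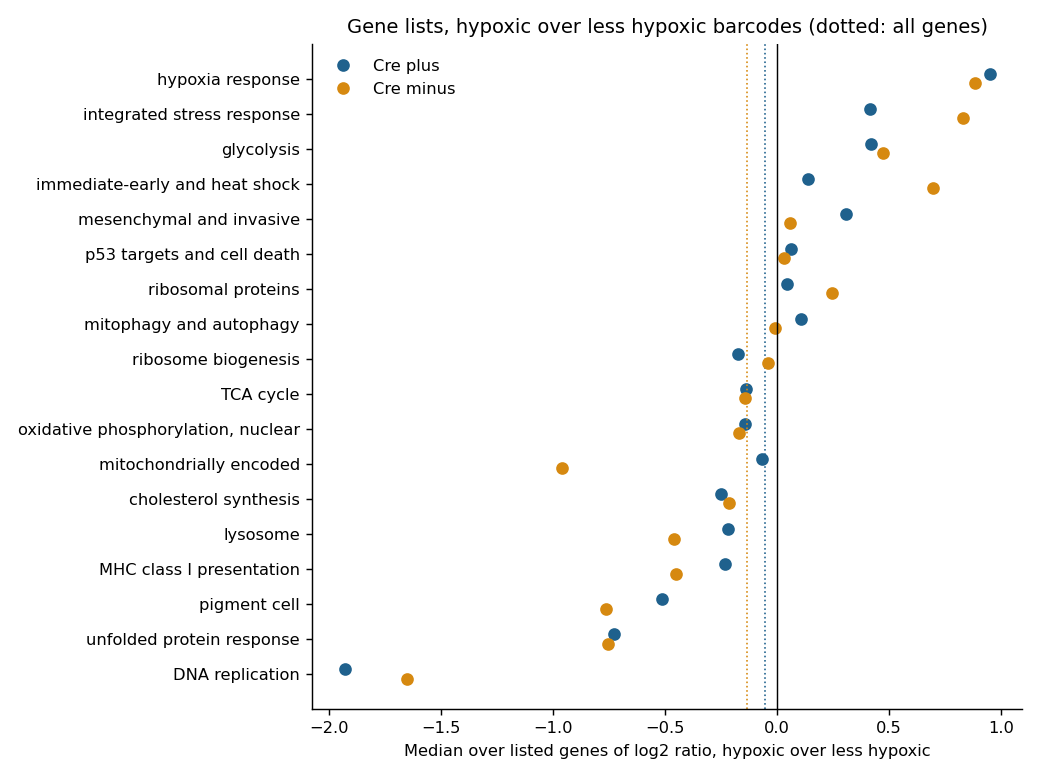
Each point is the median log2 ratio, hypoxic over less hypoxic barcodes, of the genes of a list with at least 50 summed UMIs, for the Cre plus (blue) and Cre minus (orange) library; dotted lines are the medians of all genes, -0.06 and -0.14. Of the lists shown, hypoxia response is highest (0.95 and 0.88) and the DNA replication list lowest (-1.93 and -1.65), and the mitochondrially encoded genes differ between libraries (-0.07 and -0.96).

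Glycolytic genes were higher as a group by a smaller factor. Of 19 measured glycolysis genes, 6 passed 1.5-fold upward in Cre plus and 6 in Cre minus, none passed it downward, 17 and 18 lay above 0, and the medians were 0.42 and 0.47. The share of all genes past it upward was 9.76% in Cre plus and 7.59% in Cre minus. Per barcode the list made a median of 49026 and 50027 CPM in members of Cre plus and Cre minus, against 39718 and 34174 CPM in less hypoxic barcodes. Aldoc, an aldolase, stood at 285 and 290 CPM in hypoxic barcodes, against 126 and 130 CPM (log2 1.18 and 1.16). Gpi1, the isomerase of the second step, stood at 1964 and 1908 CPM, against 1056 and 1093 CPM (0.89 and 0.80). The abundant Gapdh was higher by 0.47 and 0.61 and Ldha, which makes lactate, by 0.33 and 0.41, both under 1.5-fold in Cre plus. Ldhb, the lactate dehydrogenase subunit of oxidative tissues, ran the other way, with 588 and 681 CPM in hypoxic barcodes, against 803 and 995 CPM (-0.45 and -0.55).

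None of the 56 nuclear genes of oxidative phosphorylation passed 1.5-fold in either library, with medians of -0.14 and -0.17, and 13 (Cre plus) and 7 (Cre minus) of them lay above 0. TCA cycle genes had a median of -0.14 in both, with 2 of 18 past 1.5-fold downward and 0 upward in each library. That is near the share of all genes, of which 12.7% in Cre plus and 16.2% in Cre minus were at least 1.5-fold lower. The 13 mitochondrially encoded genes had a median of -0.07 in Cre plus and -0.96 in Cre minus, where 12 passed 1.5-fold downward. Over the other settings the Cre plus median ran between -0.96, with a mitochondrial limit of 5%, and 0.34. The median mitochondrial share per barcode was 1.28% and 1.34% in hypoxic barcodes of Cre plus and Cre minus, against 1.69% and 2.58% in less hypoxic ones. The part of RNA quality in the difference between libraries was not tested.

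A group of stress genes was higher as well. The integrated stress response acts through the transcription factor Atf4 when translation is restrained. Of its list, 5 of 15 measured genes passed 1.5-fold upward in Cre plus (9.76% of all genes did). In Cre minus 9 of 17 did (7.59% of all genes), and the medians were 0.41 and 0.83. The medians were 0.13 and 0.58 among barcodes with at least 0.1% mitochondrial UMIs. Trib3, a pseudokinase induced by Atf4, had 85.3 and 62.1 CPM in hypoxic barcodes, against 20.2 and 24.8 CPM (log2 2.08 and 1.33). Atf5 was higher by 1.49 and 1.00, Atf4 itself by 0.81 and 0.86, Cebpb by 1.05 and 1.62 and Nupr1, a stress-induced chromatin protein, by 0.89 and 1.13. The metal-binding metallothioneins were among the most abundant transcripts that differed. Mt1 stood at 9957 and 8751 CPM, against 4519 and 4532 CPM (1.14 and 0.95), Mt2 was higher by 1.37 and 1.11, and Hmox1, which breaks down haem, by 1.14 and 1.06, although the median of their list of metal, iron and redox genes was 0.01 and -0.15.

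Of the same 1426 ranked genes, from which rule, panel, mitochondrial and ribosomal protein genes had been left out, the 12 highest by the smaller of the library ratios were Pgf, Selenbp1, Ccdc155, Itpk1, Cdkn1a, Hilpda, Espn, Ier3, Pdk3, Atf3, Slc2a1 and Dnajc21. Selenbp1, a selenium-binding methanethiol oxidase, had 591 and 537 CPM in hypoxic barcodes, against 121 and 85.5 CPM in less hypoxic ones (log2 2.28 and 2.65). Cdkn1a, the cell cycle inhibitor p21, had 328 and 360 CPM, against 92.6 and 117 CPM (1.82 and 1.62), while the list of p53 targets and cell death genes to which it belongs had medians of 0.06 and 0.03. Espn, an actin-bundling protein, had 438 and 447 CPM, against 163 and 107 CPM (1.43 and 2.06). Pdk3, a kinase that shuts pyruvate out of the TCA cycle by inhibiting pyruvate dehydrogenase, had 120 and 102 CPM, against 44.7 and 36.0 CPM. The stress factors Atf3 and Ier3 were each higher by 1.42 in Cre plus, and by 2.28 and 1.78 in Cre minus. Some of these ratios varied widely over the other settings. In Cre plus, Atf3 ran between 0.22 and 2.43, Cdkn1a between 0.60 and 2.86 and Hilpda between 0.64 and 2.61. Itpk1, an inositol phosphate kinase, was higher by 1.63 and 2.18, Ccdc155 by 1.64 and 1.67, and Dnajc21, a chaperone of ribosome maturation, by 1.43 and 1.30. All genes past 1.5-fold upward in each library numbered 187 of 4420 (4.23%) and those downward 232 (5.25%).

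**Figure D3:**
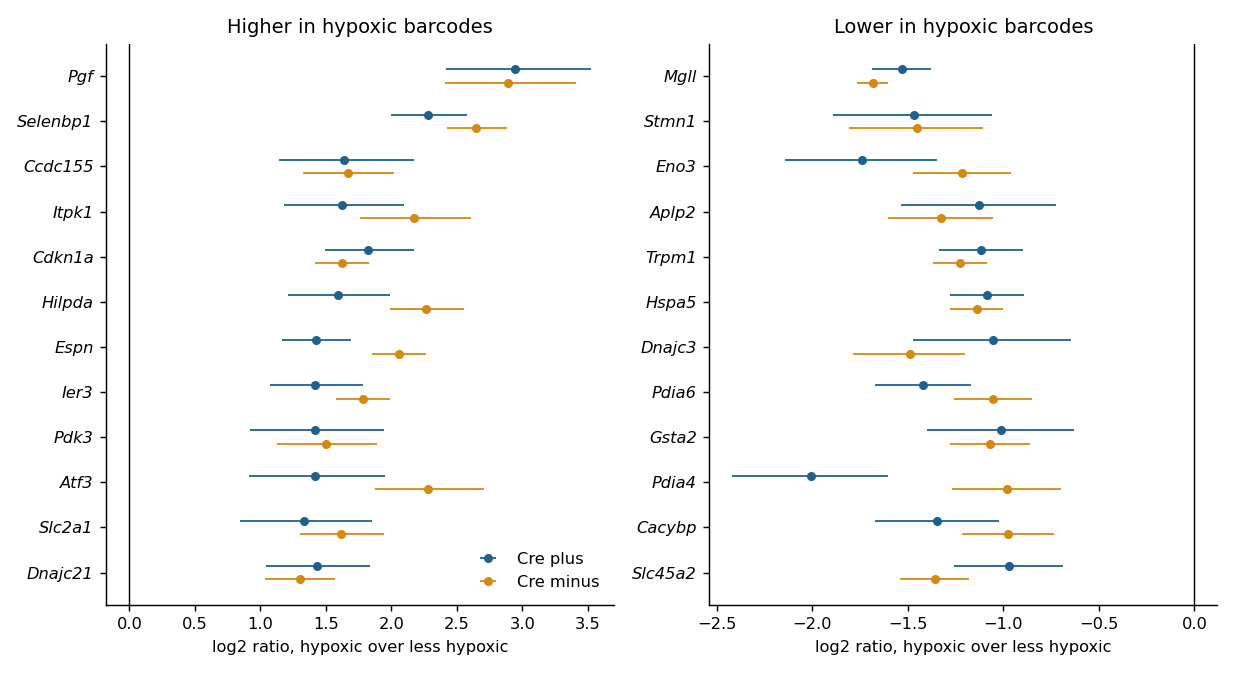
Log2 ratios of hypoxic over less hypoxic barcodes for the 12 highest and 12 lowest of 1426 genes with at least 200 summed UMIs in each library, by the library ratio nearer to 0; points are Cre plus (blue) and Cre minus (orange) and bars are 95% counting intervals. Pgf (2.95 and 2.89) and Selenbp1 (2.28 and 2.65) lead, and Mgll (-1.53 and -1.68) has the lowest value of these 1426 by this measure; the replication genes named in the text with lower values had fewer UMIs.

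Replication genes were the group lowest in hypoxic barcodes, although both groups had been limited to fewer than 3 cycling genes. Of the DNA replication list, 10 of 12 genes measured in Cre plus were at least 1.5-fold lower (12.7% of all genes were), as were 18 of 20 in Cre minus (16.2% of all genes), with medians of -1.93 and -1.65. Rrm2, the regulated subunit of ribonucleotide reductase, had 10.2 CPM in hypoxic barcodes of both libraries, against 113 and 65.4 CPM in less hypoxic ones (-3.47 and -2.68). Mcm3, a subunit of the replicative helicase, had 10.2 and 14.0 CPM, against 59.6 and 57.5 CPM (-2.55 and -2.03), and Mcm6 of the same helicase had 10.2 and 12.8 CPM, against 52.2 and 46.7 CPM (-2.35 and -1.87). Hells, a chromatin remodeller, was lower by log2 ratios of -2.82 and -2.39, and the sliding clamp Pcna by -1.10 and -1.16. Ung, a repair glycosylase in the list, had 0.02 and 0.03. Per barcode the list had a median of 288 and 254 CPM in members, against 706 and 497 CPM in less hypoxic barcodes.

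Cycling genes below the limit differed between the groups. At least 1 of the 6 was detected in 28.2% of Cre plus and 31.4% of Cre minus members, against 46.3% and 50.8% of less hypoxic barcodes. With barcodes that had none of the 6, the replication medians were -0.66 and -0.65, the hypoxia response medians 0.65 and 0.82 and the members 72 and 94. Without the barcodes above the joint median of the replication share, the hypoxia response medians were 0.82 and 0.63, and the replication median in Cre minus was -0.08. The all-gene median there was also -0.08. The same replication genes chose these barcodes, so their median in this setting is a description only.

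Chaperones of the endoplasmic reticulum were lower in hypoxic barcodes, against the direction of Ero1l, which works in the same compartment. Of the unfolded protein response list, 10 of 18 genes measured in Cre plus were at least 1.5-fold lower (12.7% of all genes were). In Cre minus 14 of 20 were (16.2% of all genes), and the medians were -0.73 and -0.75. Hspa5 (BiP), the main chaperone there, had 273 and 271 CPM in hypoxic barcodes, against 580 and 596 CPM (-1.09 and -1.14). In Cre plus, 1 less hypoxic barcode held 304 of the 545 Hspa5 UMIs of its group (55.8%), and the ratio was -0.23 without the top barcodes; with barcodes free of other cell types' panels it was 0.30, so the Cre plus direction rests on few barcodes. Pdia4, a disulfide isomerase, had 51.8 and 68.5 CPM, against 208 and 135 CPM (-0.98 in Cre minus); 1 less hypoxic Cre plus barcode held 50.8% of its UMIs there, and the Cre plus ratio was -1.16 without the top barcodes. Pdia6 was lower by -1.42 and -1.05, Calr by -1.09 and -0.86, and Dnajc3 by -1.06 and -1.49. P4hb, the isomerase that Ero1l oxidises, was the exception, with 438 and 375 CPM in hypoxic barcodes, against 267 and 233 CPM (0.71 and 0.69). The median barcode differed less than the sums in Cre plus: the list made 2546 and 2297 CPM in members of Cre plus and Cre minus, against 2600 and 3547 CPM in less hypoxic barcodes.

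Pigment cell genes were lower too. Of the list, 8 of 19 genes were at least 1.5-fold lower in Cre plus (12.7% of all genes were), as were 14 of 21 in Cre minus (16.2%). In the same order 2 and 1 genes were higher, and the medians were -0.52 and -0.76. The median barcode differed less than the sums in Cre plus, with 7220 CPM in members, against 7745 CPM in less hypoxic barcodes. In Cre minus these were 8089 and 10610 CPM. The list holds none of the 4 genes of the melanoma panel, which admitted barcodes in either group. Pmel, the fibril protein of the melanosome, and Dct are genes of that panel, outside these counts, and are given as a description only. Pmel had 1207 and 1325 CPM in hypoxic barcodes, against 2291 and 3578 CPM, and Dct had 5224 and 5543 CPM, against 5773 and 7912 CPM. Trpm1, a melanocyte channel outside the panel, had 213 and 259 CPM, against 461 and 606 CPM (-1.11 and -1.23). Slc45a2, a melanosomal transporter, was lower by -0.97 and -1.36. Mitf, the master regulator of pigment genes, was lower by -0.46 and -0.70, whereas Sox10, the neural crest factor upstream of it, was level (-0.07 and -0.02). Tyr, the rate-limiting enzyme of melanin, had opposite signs in the libraries (0.68 in Cre plus and -1.47 in Cre minus). Cited1, a transcription coactivator known from melanocytes, was higher, with 828 and 803 CPM in hypoxic barcodes, against 292 and 403 CPM.

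Other genes among the 12 lowest of the 1426 ranked had varied roles. Mgll, which breaks down monoacylglycerols, had 375 and 707 CPM in hypoxic barcodes, against 1084 and 2269 CPM in less hypoxic ones (-1.53 and -1.68; -1.19 in Cre minus without barcodes over 100000 UMIs). Stmn1, a microtubule destabiliser of dividing cells, had 55.4 and 41.7 CPM, against 153 and 114 CPM (-1.47 and -1.45). Its Cre minus ratio ran between -1.77 and -0.19 over the other settings. Eno3, a glycolytic enolase that is not the abundant form, had 56.9 and 80.4 CPM, against 190 and 186 CPM (-1.74 and -1.21), while Eno1 was higher by 0.24 and 0.42. Aplp2 was lower by -1.13 and -1.32, Gsta2, a glutathione transferase, by -1.01 and -1.07, and Cacybp by -1.35 and -0.97. Ribosomal protein genes, as a yardstick of highly expressed genes, had medians of 0.05 and 0.25, with 0 of 46 past 1.5-fold in either library.

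Several lists were graded along the share of the 4 genes, and others were not. With the 552 barcodes in 4 bins of equal size by that share, from low to high, the hypoxia response list summed to 5338, 8436, 9388 and 9564 CPM in Cre plus and to 5148, 7334, 8976 and 9835 CPM in Cre minus. The glycolysis list summed to 31221, 44000, 48927 and 50026 CPM in Cre plus and to 29196, 41311, 48721 and 50756 CPM in Cre minus. For both lists the largest step lay between the lowest bin and the next, below the cut. Pgf went on climbing inside the hypoxic barcodes, with 16.5, 50.5, 128 and 369 CPM in Cre plus and 9.54, 26.6, 73.1 and 184 CPM in Cre minus, and so did Mt1, with 2417, 6755, 7941 and 11776 CPM in Cre plus and 3345, 5673, 7485 and 9754 CPM in Cre minus. The replication list ran the other way, with 1339, 831, 427 and 315 CPM in Cre plus and 1102, 807, 446 and 319 CPM in Cre minus. Pigment genes were set apart mainly in the lowest bin, with 10919, 6832, 6731 and 8094 CPM in Cre plus and 17059, 10557, 8520 and 9089 CPM in Cre minus. The unfolded protein response list summed to 7328, 2481, 2427 and 3874 CPM in Cre plus, where its lowest bin alone stood apart, and to 5101, 3934, 3044 and 2976 CPM in Cre minus. The integrated stress response list had no steady order in Cre plus, with 1787, 1488, 2343 and 2123 CPM, and climbed in Cre minus, with 1442, 1526, 1877 and 2593 CPM. Across barcodes, Spearman's rho between the rule share and the hypoxia response list was 0.62 in Cre plus (212 barcodes) and 0.75 in Cre minus (340 barcodes), with the replication list -0.42 and -0.37, and with a barcode's total UMIs 0.09 and 0.15; barcodes of a library share that library, so these are descriptions.

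**Figure D4:**
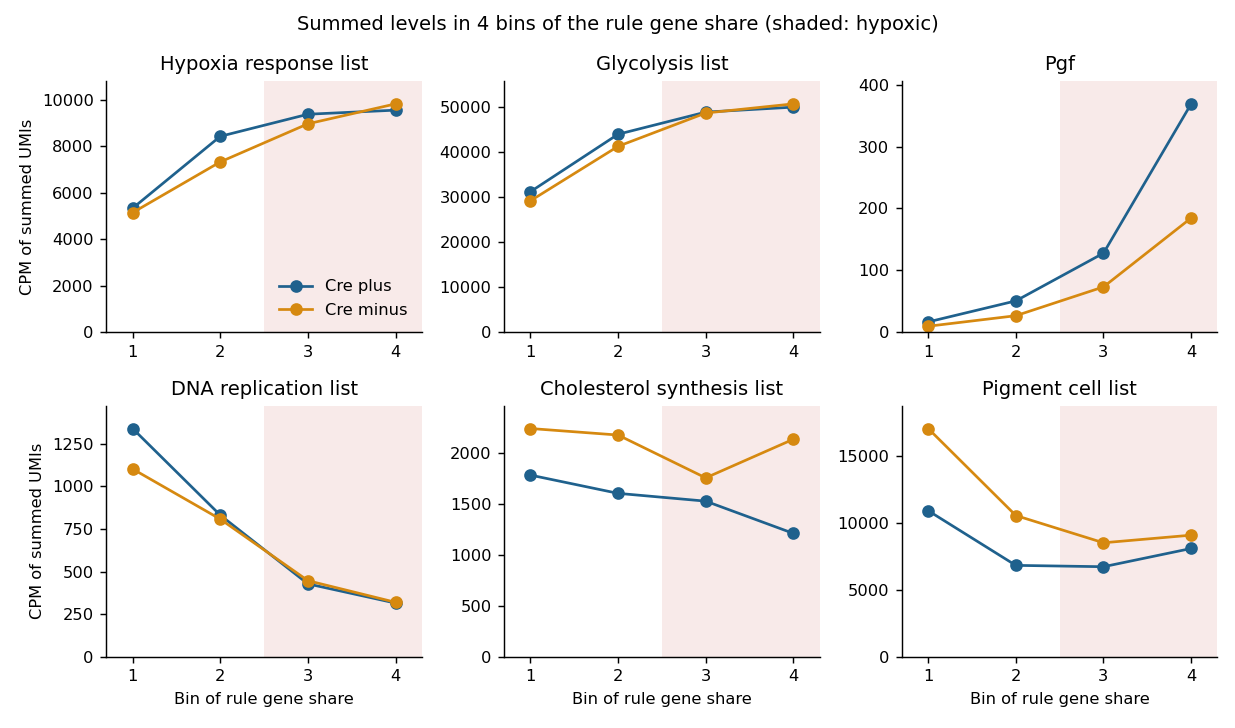
CPM of summed UMIs in 4 bins of barcodes ordered by the share of the rule genes (1 lowest, 4 highest; bins 3 and 4, shaded, are the hypoxic barcodes), for the Cre plus (blue) and Cre minus (orange) library. The hypoxia response and glycolysis lists level off above the cut, Pgf climbs to 369 and 184 CPM in the highest bin, and the replication list drops to 315 and 319 CPM.

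Set against the Malat1-rich non-cycling melanoma barcodes, which are far deeper (median 109004 UMIs in Cre plus), the hypoxic barcodes had a hypoxia response list near the level of all genes. The all-gene median of hypoxic over Malat1-rich was -0.47 in Cre plus and -0.37 in Cre minus, with 4.73% and 3.81% of genes at least 1.5-fold higher and 45.9% and 41.3% lower. The hypoxia response median was -0.44 and -0.19, near that of all genes, and its summed level was 9480 and 9455 CPM in hypoxic barcodes, against 8042 and 7840 CPM in Malat1-rich ones, so its median and its summed level differ in sign. Glycolysis (0.43 and 0.48) and ribosomal protein genes (0.45 and 0.42) lay above the all-gene median. Mitochondrially encoded genes (-1.20 and -1.66), lysosomal genes (-0.89 and -1.05) and the unfolded protein response list (-0.90 and -1.17) lay below it. Vegfa had 91.9 and 143 CPM in hypoxic barcodes, against 310 and 291 CPM in Malat1-rich ones, and Vegfc 559 and 651 CPM, against 1886 and 1952 CPM, while Pgf had 254 and 135 CPM, against 183 and 125 CPM. The DNA replication list, lowest against the less hypoxic barcodes, summed to 368 and 376 CPM in hypoxic and 380 and 323 CPM in Malat1-rich barcodes.

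The hypoxic barcodes of the genotypes were compared next; a joint cut on 4 hypoxia genes chose them in both libraries. The targeted gene Ifngr1 had 5 UMIs (3.65 CPM) in Cre plus members, against 18 (7.66 CPM) in Cre minus members, and 7.57 and 19.1 CPM in the Malat1-poor lymphatic barcodes; the labels do not say which exons the allele removes, so 3′ counts do not check it. Of 5717 genes, 152 (2.66%) were at least 1.5-fold higher in Cre plus and 394 (6.89%) lower, with an all-gene median of -0.04. The shares were 4.43% and 11.8% in less hypoxic barcodes, and 4.67% and 1.85% in Malat1-rich ones. The hypoxia response list, which is close to the rule, had a median of -0.11 with 0 of 30 higher and 6 lower, and glycolysis of -0.04 with 0 higher and 1 lower of 19. With 1 library per genotype, genotype and library cannot be told apart in any of these values.

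Genes of antigen presentation on MHC class I were higher in Cre plus members. Of 13 measured genes 4 passed 1.5-fold upward (2.66% of all genes did) and none passed it downward. Of the same 13, 12 lay above 0 and the median log2 ratio was 0.38. Per barcode the list had a median of 2274 CPM in Cre plus members, against 1669 CPM in Cre minus members. H2-D1, a class I heavy chain, had 230 CPM in Cre plus members and 118 CPM in Cre minus members (0.96 [0.72, 1.20]). These levels were 9.17% and 5.40% of its highest level in endothelial, macrophage or stromal barcodes of the same library, so H2-D1 was among the genes set aside as possible free RNA in the ranking further on. B2m, the shared light chain, had 762 CPM in Cre plus members and 507 CPM in Cre minus members (0.59 [0.47, 0.71]). Psmb9 and Psmb8, subunits of the immunoproteasome, were higher by 0.78 and 0.73, and H2-K1, another classical heavy chain, by 0.38. The same direction held in less hypoxic barcodes (median 0.28 with 12 of 13 above 0, H2-D1 0.81, B2m 0.26, Psmb8 0.90). In Malat1-rich barcodes the list had no clear direction, with a median of 0.09 beside an all-gene median of 0.06. Of 19 measured genes there, 10 lay above 0, 3 passed 1.5-fold upward and 1 downward. H2-D1, B2m and Psmb8 were higher there by 0.55, 0.19 and 0.48. The differences between these groups were not tested. The lymphatic barcodes low in Malat1 numbered 272 (Cre plus) and 149 (Cre minus), and in them H2-D1 stood at 1153 and 1504 CPM and B2m at 2299 and 2972 CPM. The 5 general endothelial markers summed to 118 CPM in Cre plus members and 79.5 CPM in Cre minus members. Cd74, the invariant chain of MHC class II, was set aside in the same way and had 131 CPM in Cre plus members and 45.1 CPM in Cre minus members, 2.76% and 1.09% of its highest level in other cells. The part of free RNA in the class I difference was not tested. Other interferon lists were mixed: the type I interferon response list had a median of -0.16 with 1 of 16 higher and 3 lower, and ran between -0.36 and 0.41 over the other settings, and Irgm1, the single measured gene of the interferon GTPase list, had -0.84. The interferon signalling list had a median of 0.09, with 4 of 7 above 0, 0 past 1.5-fold upward and 1 downward. Ifitm3, an interferon-induced membrane protein, had 278 CPM in Cre plus members and 189 CPM in Cre minus members (0.56). Its ratio ran between 0.11 and 1.09 over the other settings. In the hypoxic over less hypoxic comparison the class I list was lower, with medians of -0.23 and -0.45.

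Cholesterol synthesis genes were lower in Cre plus members, 10 of 18 measured past 1.5-fold and none higher, with a median of -0.59 (-0.44 without barcodes over 100000 UMIs). Of all genes, 6.89% were at least 1.5-fold lower in members. Fdft1 and Sqle, which commit the pathway to sterols, had 35.0 and 61.3 CPM in Cre plus and 68.5 and 105 CPM in Cre minus (-0.97 and -0.78), and Hmgcs1, an early enzyme, 78.8 and 124 CPM (-0.66). Less hypoxic (median -0.34, 5 of 20 lower beside 11.8% of all genes) and Malat1-rich barcodes (-0.35, 2 of 20 beside 1.85%) had the same sign. The mitochondrially encoded genes had a median of 0.42 in members, with 13 of 13 above 0 and none past 1.5-fold, and -0.51 in less hypoxic barcodes; with a mitochondrial limit of 5% the median in members was -0.29.

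**Figure D5:**
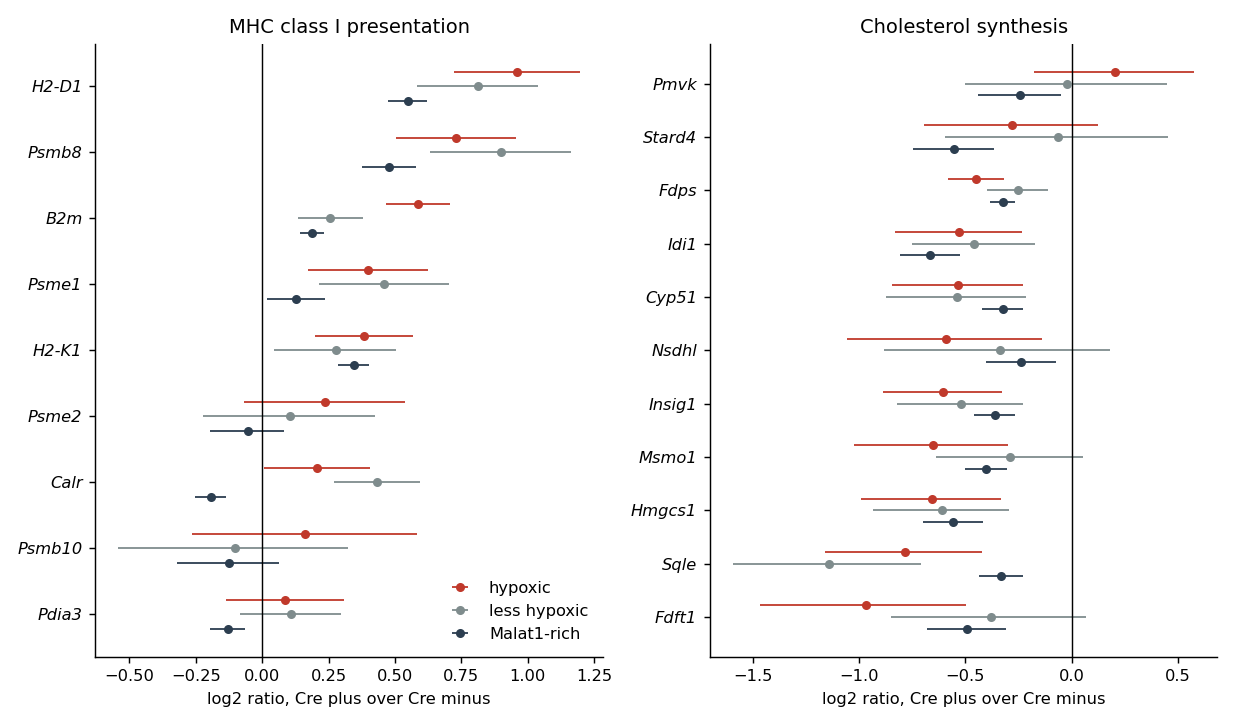
Log2 ratios of Cre plus over Cre minus for the listed MHC class I and cholesterol genes with at least 200 summed UMIs in hypoxic barcodes, in hypoxic (red), less hypoxic (grey) and Malat1-rich (dark) melanoma barcodes; bars are 95% counting intervals of 1 library against 1 library. H2-D1 is the highest class I gene shown (0.96 in hypoxic barcodes) and Fdft1 the lowest cholesterol gene shown (-0.97).

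Of 2136 genes ranked between genotypes in hypoxic barcodes, after 19 with levels under 10% of those in other cell types were set aside as possible free RNA, the 10 highest included Tpm2, Pgf, Psmb8, B2m, Kdelr3, Tnfrsf12a, Ifitm3, Sap18 and Mt3. Tpm2, a tropomyosin, had 122 CPM in Cre plus, against 59.5 CPM in Cre minus (1.03), and Pgf 254 and 135 CPM (0.91 [0.69, 1.14]). Tnfrsf12a, the receptor of the cytokine TWEAK, was higher by 0.67 and Mt3, a metallothionein, by 0.54. Over the other settings Tpm2 ran between 0.37 and 1.35 and Pgf between 0.06 and 1.30. Tnfrsf12a ran between 0.20 and 0.89 there, and Mt3 between 0.31 and 0.60. The 10 lowest were Cck, Mgll, Pik3r3, Fos, Dst, Apold1, Mylk, Ier3, Fdft1 and Phlda1. Cck, which encodes the peptide hormone cholecystokinin, had 24.8 CPM in Cre plus, against 106 CPM in Cre minus (-2.10), and Mgll 375 and 707 CPM (-0.92). Cck ran between -3.41 and -1.56 over the other settings, and Mgll between -1.08 and -0.16. Fos, an immediate-early transcription factor, had 62.0 CPM in Cre plus, against 127 CPM in Cre minus (-1.03), but 1 barcode held 59.1% of its Cre minus UMIs and the ratio was -0.10 without the top barcodes.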

How the data were processed

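The deposited files give whole-number UMI counts for 32285 genes in each of 2 libraries, with genes and barcodes beside them per the file headers; per the submitters' processing notes they were made with Cell Ranger 7.0.0 and mm10, and the annotation release they used is not given in the sources here. The members and gene lists were chosen with earlier results of these data known. Barcodes were chosen as the report states; doublets were not called or removed, and 0 columns of other samples were left unused. UMIs were summed over the barcodes of a group and library and scaled to CPM. Log2 ratios of CPM carry exact conditional binomial 95% intervals and were read for genes with at least 50 summed UMIs; a gene counts as higher or lower past 1.5-fold. Nothing was tested, since each genotype is 1 library of 3 pooled tumors. Named genes are members of the 25 lists (up to 6 of a described list by the library ratio nearer to 0 or, between genotypes, the interval bound farthest from 0), the 12 highest and 12 lowest by the ratio nearer to 0 with at least 200 UMIs per library, and the 10 highest and 10 lowest between genotypes by the interval bound nearer to 0. Other genes were named after their values were seen, because they went against their list. Ddit3 and Aldoa have duplicate rows and are not reported singly. Promoter windows and their motifs are from RefSeq on GRCm38.p6; 431 of 541 list genes had one. The alternatives were other filters, cuts, gene minimums, scalings and ways of summing. Python 3.11.15, numpy 2.4.6, scipy 1.17.1, pandas 2.3.3 and matplotlib 3.10.9 were used. The ratios and intervals were checked on simulated counts drawn independently for each gene. These counts held no gathering of a gene's UMIs in single barcodes, so the check does not cover it. One gene that the naming rule selected is not reported here.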

Additional observations from a re-analysis of the deposited data

Results flagged for a closer look

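Both results below were picked from the listed genes because hypoxic over less hypoxic barcodes passed 1.5-fold in opposite directions in the libraries. Each counting interval left out 0, but such an interval does not hold the spread over barcodes. The difference between the libraries was not tested, since each genotype is a single library. Tyr, which encodes tyrosinase, had 71.5 CPM in hypoxic and 44.7 CPM in less hypoxic barcodes of Cre plus (log2 0.68 [0.14, 1.23]), and 47.2 and 130 CPM in Cre minus (-1.47 [-1.80, -1.14]); without the top barcode of each group the ratios were 0.57 and -1.26. The mitochondrially encoded mt-Nd6, a subunit of complex I, had 67.1 and 44.7 CPM in Cre plus (0.59 [0.04, 1.15]), and 56.6 and 103 CPM in Cre minus (-0.86 [-1.18, -0.54]); without the top barcodes they were 0.46 and -0.89. Both rest on 42 UMIs in the less hypoxic Cre plus barcodes.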

How the results depend on the processing

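No paired analysis was possible because each genotype is 1 library, and for the same reason no replicate could be left out. The counts compared are the members per library (117 Cre plus, 159 Cre minus), the hypoxia response genes past 1.5-fold upward (18 of 26 in Cre plus, 19 of 30 in Cre minus), all genes past it in each library (187 higher, 232 lower), all genes between genotypes (152 higher, 394 lower) and the genes of the MHC class I, interferon GTPase and type I interferon lists between genotypes (5 higher, 4 lower in Cre plus). Of 250 values under alternatives and as reported, 201 stayed within 1.5 times and 49 moved. All of these values are counts, for which no change of direction was defined. With none of the 6 cycling genes allowed, there were 72 and 94 members, 117 genes higher and 118 lower in each library, 248 lower between genotypes, and 8 higher and 0 lower interferon-list genes. With no cycling filter there were 243 Cre minus members, 355 genes higher and 892 lower, and 2 higher interferon-list genes. Setting the third with the highest share against the third with the lowest left 104 Cre minus members and 0 lower interferon-list genes. Thinning to 2000 UMIs gave 113 genes higher and 1 lower interferon-list gene. Averaging CPM over barcodes gave 264 higher and 619 lower genes between genotypes and 0 lower interferon-list genes. A minimum of 20 UMIs gave 285 higher and 541 lower genes in each library, 493 and 953 between genotypes and 10 higher interferon-list genes. A minimum of 200 gave 9 hypoxia response genes in Cre plus, 79 and 57 genes in each library, 13 and 39 between genotypes, and 3 and 0 interferon-list genes. At 2-fold these were 11, 61 and 51, 17 and 69, and 0 and 0; both follow from fewer genes passing. Higher interferon-list genes numbered 8 with Malat1 under 0.05%, 3 with a cut per library and 3 without Ero1l in the rule; lower ones numbered 0 with Malat1 under 0.2%. Fos between genotypes was 0.10 with Malat1 under 0.05%.

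The following were chosen after seeing the data. Without barcodes over 100000 UMIs, Fos was 0.10. Without the upper part by replication share there were 72 Cre plus members, 112 higher and 116 lower genes in each library and 3 higher interferon-list genes. Without barcodes that held any UMI of another cell type's panel, 150 genes were lower in each library, 10 interferon-list genes were higher and 1 lower, Hspa5 was 0.30 in Cre plus and Fos 0.30 between genotypes. With at least 0.1% mitochondrial UMIs, 1 interferon-list gene was lower. The causes were not tested. Of 1654 values of list medians 124 moved, and medians within 1.5-fold of 0 changed sign for some lists, such as the mitochondrially encoded genes in Cre plus (-0.96 to 0.34) and between genotypes (-0.29 to 0.56); of 1564 values of named genes 283 moved and 4 reversed, those of Fos and Hspa5 above. The Cre plus ratio of Mcm3 rests on 14 UMIs in members.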
